A study of Mus musculus with 18 samples.

Results

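The 10 genes Vegfa, Kdr, Flt1, Pecam1, Cdh5, Tek, Angpt1, Angpt2, Eng and Sox17 were chosen by name as endothelial and angiogenic genes, with earlier results of these data known, out of 57126 genes in the count table. All 10 were counted in all 18 mammary tumors and passed the filter on low counts in every comparison. The tumors were grouped as MaP R172H/- (n = 7 tumors from 7 mice), MaP R245W/- (n = 5 tumors from 5 mice) and MaP -/- (n = 6 tumors from 4 mice, of which JM663 and JM833 gave a T1 and a T2 tumor each). For mice JM779 and JM836 the labels and the study's own list of tumors name different tumors of the mouse as sequenced, and the names of the labels are used here. All mice were F1 hybrids of BALB/c and C57BL6/J that received an adenovirus carrying Cre recombinase into the mammary duct as young adults and were killed when they carried a tumor burden. Recombination removed the wild-type Trp53 cDNA in the ductal epithelium, so those cells carried 1 allele of p53 R172H, 1 allele of p53 R245W or no p53, each over a null allele. The vessels, leukocytes and stroma of each tumor kept wild-type Trp53, and the control MaP -/- tumors had undergone the same recombination. A Rosa26 LSL-TdTomato reporter was present in 3 MaP R172H/- and 3 MaP R245W/- tumors and in 0 MaP -/- tumors.

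Blood vessels grow when hypoxic or transformed cells release vascular endothelial growth factor A, the product of Vegfa, which signals through the receptor VEGFR2 (Kdr) on endothelial cells. VEGFR1 (Flt1) binds the same ligand more tightly but signals weakly and is regarded as a decoy, and it is itself a hypoxia-responsive gene. Angiopoietin 1 (Angpt1), made by perivascular and stromal cells, keeps vessels quiescent through the receptor TIE2 (Tek), while angiopoietin 2 (Angpt2), stored and released by the endothelium itself, opposes it and accompanies sprouting. PECAM1 and VE-cadherin (Cdh5) hold endothelial cells to each other, endoglin (Eng) is a coreceptor for BMP9 and BMP10, and SOX17 is a transcription factor of arterial endothelium.

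Total counts per tumor were between 23113578 and 27930163 in MaP R172H/- tumors, between 30030630 and 37365062 in MaP R245W/- tumors and between 24736337 and 32085794 in MaP -/- tumors. Levels are given as CPM, the count of a gene divided by the TMM-normalised library size and scaled to a common total. The lowest raw count of any of the 10 genes in any tumor was 26, for Sox17. Every MaP R172H/- library was read on an Illumina HiSeq instrument and every other library on a NovaSeq, so genotype and instrument cannot be told apart in any comparison that involves MaP R172H/- tumors. The study lists all MaP R172H/- tumors as nonmetaplastic adenocarcinomas of luminal B or HER2-enriched subtype. It lists all MaP R245W/- and MaP -/- tumors as triple-negative, many of them metaplastic. Tumor subtype therefore cannot be told apart from genotype in the same comparisons. In bulk RNA, fewer endothelial cells and less RNA per endothelial cell cannot be told apart either.

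Several tumors stood apart in cell type markers. Epithelial markers (9 genes) summed to 164 CPM in JM779-T1, 378 CPM in YZ7 and 479 CPM in JM1233, against 1087 to 8749 CPM in the other tumors. Adipocyte markers (8 genes) summed to 4116 CPM in the MaP -/- tumor JM833-T1, where the lipid droplet gene Plin4 was the most abundant at 1520 CPM. Its sister tumor JM833-T2 had 502 CPM, YZ4 had 337 CPM, and the remaining tumors had at most 94.6 CPM. Skeletal muscle markers (7 genes) summed to 1019 CPM in JM1233 and 170 CPM in JM1133, and to at most 37.5 CPM elsewhere. Fibroblast markers (7 genes) reached 29107 CPM in JM1126, of which Col3a1, a fibrillar collagen, made up 11088 CPM. None of the 28 endothelial identity genes had a count of 0 in any tumor, and their sum ran from 336 CPM in JM1564 to 1508 CPM in JM833-T1.

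The promoters of 4 members are shown because these genes belong to the 2 expression patterns described further on, Kdr with Pecam1, and Vegfa with Flt1. Each is the run of 250 bases before the start of the Ensembl canonical transcript, read from the GRCm39 genome with GENCODE M39 on the strand of the gene. Capitals mark GGAAG, the core of ETS factor sites common in endothelial genes, and its reverse complement CTTCC. The windows are chr5:76139119-76139368 for Kdr, chr11:106606458-106606707 for Pecam1, chr17:46343310-46343559 for Vegfa and chr5:147662822-147663071 for Flt1. All 4 genes lie on the minus strand.
Kdr: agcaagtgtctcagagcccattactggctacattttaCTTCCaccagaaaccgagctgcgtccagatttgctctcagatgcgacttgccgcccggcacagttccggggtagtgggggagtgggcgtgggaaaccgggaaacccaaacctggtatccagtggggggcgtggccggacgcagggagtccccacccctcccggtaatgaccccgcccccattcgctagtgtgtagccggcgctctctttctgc
Pecam1: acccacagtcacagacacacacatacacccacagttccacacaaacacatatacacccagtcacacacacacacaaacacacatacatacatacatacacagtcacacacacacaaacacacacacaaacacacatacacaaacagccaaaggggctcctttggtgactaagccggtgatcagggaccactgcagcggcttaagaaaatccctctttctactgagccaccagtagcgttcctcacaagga
Vegfa: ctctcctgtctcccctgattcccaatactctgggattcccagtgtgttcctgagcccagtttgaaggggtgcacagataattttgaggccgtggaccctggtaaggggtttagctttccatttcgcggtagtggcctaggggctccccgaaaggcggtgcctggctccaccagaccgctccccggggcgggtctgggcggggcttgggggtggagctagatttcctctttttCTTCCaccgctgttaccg
Flt1: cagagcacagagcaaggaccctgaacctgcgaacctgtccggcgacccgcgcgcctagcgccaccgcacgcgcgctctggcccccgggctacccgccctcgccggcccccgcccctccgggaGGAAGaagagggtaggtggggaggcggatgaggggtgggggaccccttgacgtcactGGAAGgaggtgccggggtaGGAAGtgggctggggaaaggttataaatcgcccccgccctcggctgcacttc
A GGAAG match on either strand was present in 9 of the 10 members, and in 63.8% of 21770 protein-coding promoters of the same length. Flt1 and Sox17 had 3 matches each. The Pecam1 window held none. Hypoxia-inducible factors bind a core of ACGTG or GCGTG. On either strand ACGTG was in 0 of the 10 windows and in 17.0% of all promoters, and GCGTG was in 4 of the 10 windows (2 matches in Kdr, 1 in Flt1) and in 31.2% of all promoters. Matches of such short words are descriptions of the sequence in these windows alone.

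Levels between genes were compared per kilobase of the canonical transcript. Vegfa had the highest mean over the 18 tumors at 62.7 ± 42.8 CPM per kilobase (SD), followed by the junction genes Pecam1 at 25.4 ± 10.5 and Cdh5 at 20.1 ± 6.70 CPM per kilobase. Eng had 12.1 ± 5.12, Flt1 10.3 ± 4.23 and Kdr 8.87 ± 2.53 CPM per kilobase, and these neighbours did not separate beyond their spread. Within single tumors Eng exceeded Flt1 in 10 of 18 and Flt1 exceeded Kdr in 12 of 18. The angiopoietin system was lower, with Angpt2 at 7.18 ± 2.63, Angpt1 at 3.75 ± 3.05 and its receptor Tek at 3.02 ± 2.66 CPM per kilobase. Sox17, the transcription factor, was lowest at 0.838 ± 0.637 CPM per kilobase and lay below Tek in 18 of 18 tumors. This order depended on the length used: over the merged exons of all transcripts, Pecam1 fell below Cdh5 in 18 of 18 tumors, at 9.34 against 18.4 CPM per kilobase, and Angpt2 at 6.99 lay above Kdr at 5.71, Flt1 at 5.22 CPM per kilobase and also Eng.

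**Figure D1:**
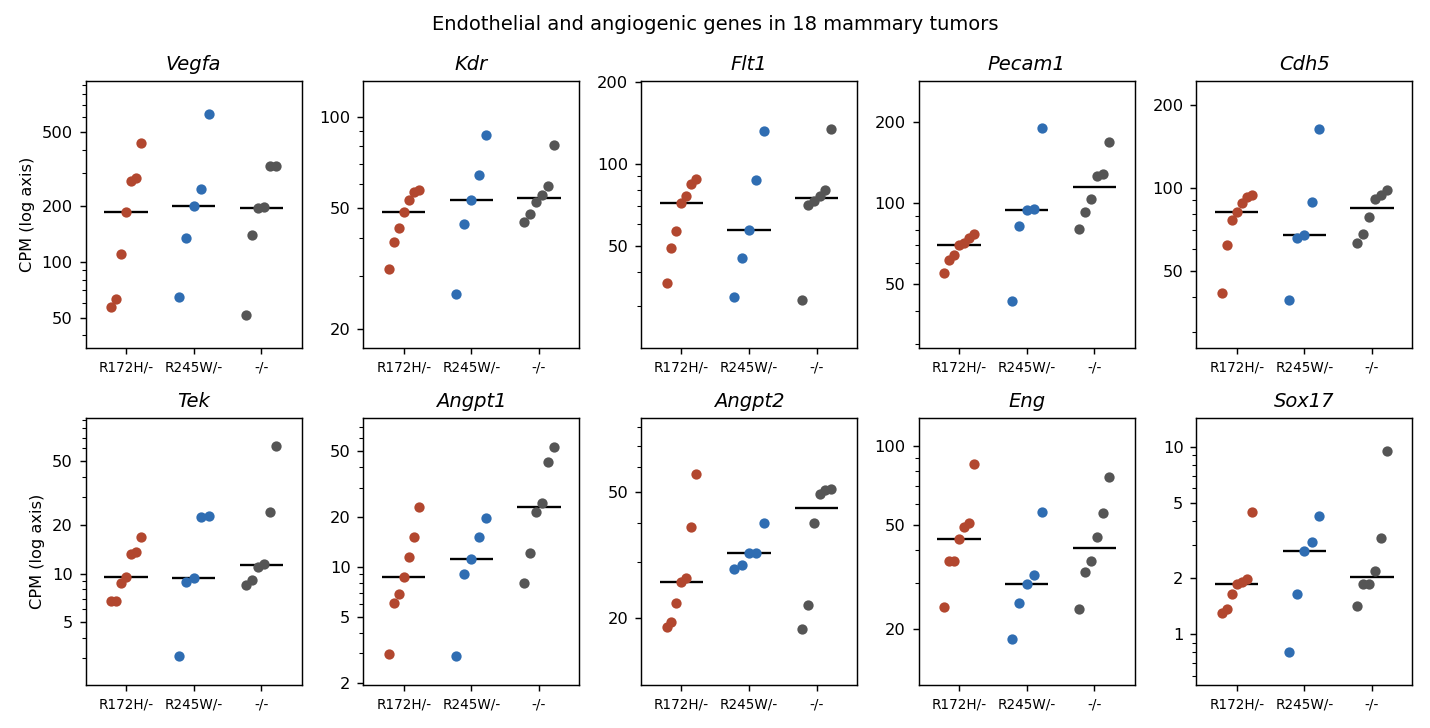
Level of each gene in CPM (log axis, different range in each panel) in every tumor of the 3 genotypes, with 1 point per tumor and a bar at the group median. The groups overlap for every gene and comparison except Pecam1, where all 7 MaP R172H/- tumors lie at or below 77.0 CPM and all 6 MaP -/- tumors at or above 80.0 CPM.

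Vegfa, the ligand (chr17:46327919-46343309, minus strand), varied widely inside each genotype. Its level was 57.1 CPM in the lowest, 186 CPM in the median and 435 CPM in the highest MaP R172H/- tumor. The 5 MaP R245W/- tumors had 64.6, 246, 134, 627 and 198 CPM (JM1233, JM1564, RM0014, JM1126 and JM1133, the order used for this group throughout). In MaP -/- tumors the lowest, median and highest levels were 51.3, 195 and 328 CPM. All 3 groups overlapped over most of their range, and each held at least 1 tumor under 65 CPM. With edgeR's quasi-likelihood test the log2 fold change against MaP -/- was -0.03 in MaP R172H/- tumors (95% interval -1.12 to 1.06, FDR 0.978) and 0.30 in MaP R245W/- tumors (-0.93 to 1.53, FDR 0.848). The SD of log2 CPM within groups was 1.11 for Vegfa, larger than in 78.2% of 15197 protein-coding genes, whose median was 0.54.

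The VEGF receptors were steadier. Kdr (chr5:76093487-76139884) was at 31.7, 48.5 and 57.4 CPM in the lowest, median and highest MaP R172H/- tumor and at 45.1, 54.0 and 80.9 CPM in MaP -/- tumors. The MaP R245W/- tumors had 64.2, 26.1, 44.3, 87.2 and 53.4 CPM. These ranges overlapped, with JM1564 the lowest and JM1126 the highest of all 18. Kdr had the smallest within-group SD of the 10 genes, 0.43 on the log2 scale, and its log2 fold change was -0.25 in MaP R172H/- (SE 0.177, FDR 0.402) and -0.05 in MaP R245W/- tumors (SE 0.279, FDR 0.953; edgeR). Flt1 (chr5:147498414-147662826) was at 36.3, 72.0 and 88.1 CPM in the lowest, median and highest MaP R172H/- tumor and at 31.4, 74.6 and 135 CPM in MaP -/- tumors. The MaP R245W/- tumors had 32.3, 44.97, 57.3, 132 and 87.1 CPM. Again no group separated, and edgeR gave -0.22 (SE 0.287, FDR 0.681) and -0.14 (SE 0.396, FDR 0.906) on the log2 scale for MaP R172H/- and MaP R245W/- tumors against MaP -/-.

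Pecam1 (chr11:106543689-106641454, minus strand) was the only member past the threshold, and only in MaP R172H/- against MaP -/- tumors. It was at 55.4, 69.9 and 77.0 CPM in the lowest, median and highest MaP R172H/- tumor. In MaP -/- tumors it was at 80.0, 115 and 170 CPM, so that the 2 groups did not overlap. Its levels in MaP R245W/- tumors were 95.3, 43.5, 82.3, 190 and 94.4 CPM, spanning both other groups. The level in the MaP R172H/- group was 1.70-fold lower than in the null group (log2 fold change -0.77, SE 0.168, edgeR FDR 0.0135). It was the only 1 of the 10 members past an FDR of 0.05 in this comparison, where 8.40% of 20954 genes tested passed and 4.73% passed as lower. A count of 1 in 10 is near that background. The 1 member of 10 whose groups did not overlap compares with 2.62% of genes tested that were lower without overlap. Against MaP R245W/- tumors the log2 fold change was -0.58 (SE 0.260, FDR 0.169, edgeR fit of all 18 tumors), and it turned on 2 MaP R245W/- tumors: it was past the threshold without the low JM1564 (-0.77, FDR 0.0451) and fell to -0.22 (FDR 0.586) without the high JM1126. No member passed in that comparison, in which 9.40% of 22481 genes did. MaP R245W/- against MaP -/- tumors gave -0.22 for Pecam1 (SE 0.329, FDR 0.813). The FDR of Pecam1 in MaP R172H/- against MaP -/- tumors was between 0.00751 and 0.0335 with any 1 of the 13 tumors left out, and 0.0603 when all 3 genotypes were fitted together.

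PECAM1 is also carried by platelets and many leukocytes, and markers of these cells moved in the same comparison. Of 10 leukocyte markers, 4 fell in MaP R172H/- against MaP -/- tumors: Ptprc (CD45, log2 fold change -1.24), Adgre1 (the macrophage marker F4/80, -1.04), Itgam (CD11b, -1.48) and S100a8 (a neutrophil calgranulin, -3.13), all by edgeR with FDR between 0.00688 and 0.0231. All 10 had a log2 fold change below 0, with a median of -1.24 against 0.0027 over all genes tested. Of all genes tested 4.73% fell, and 2.62% were lower without overlap. Their summed level was 364 to 465 CPM in MaP R172H/- tumors and 476 to 1204 CPM in MaP -/- tumors, without overlap, with Csf1r, a macrophage receptor, the most abundant in every MaP R172H/- tumor. A count of 0 occurred for 1 of the 10 in YZ7 and for none of them in any other tumor. Platelet and megakaryocyte markers (6 genes, of which 2 were tested) summed to 6.73 to 18.5 CPM in MaP R172H/- tumors, 5.67 to 71.6 CPM in MaP -/- tumors and 7.83 to 76.3 CPM in MaP R245W/- tumors. Among them Pf4, a platelet chemokine, fell in MaP R172H/- against MaP -/- tumors (-2.54, edgeR FDR 0.0361) and was at 50.6 CPM in JM663-T2 and 57.1 CPM in JM1126. The part of these cells in the level of Pecam1 was not tested. Between tumors of 1 genotype, Pecam1 had a Pearson r of 0.94 with the endothelial junction gene Esam and of 0.53 with Ptprc, the latter -0.40 over the 7 HiSeq and 0.65 over the 11 NovaSeq libraries. Its median r was 0.49 with the platelet and megakaryocyte markers (4 of 4 compared above 0) and 0.31 with the leukocyte markers (10 of 10 above 0). With the 28 endothelial identity genes it was 0.79.

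Cdh5 (chr8:104828231-104871143, plus strand), which encodes the endothelial junction protein VE-cadherin, had an estimate near 0. It was at 41.4, 81.9 and 93.9 CPM in the lowest, median and highest MaP R172H/- tumor and at 62.9, 84.7 and 98.5 CPM in MaP -/- tumors. The MaP R245W/- tumors had 65.5, 39.2, 67.2, 163 and 88.8 CPM. The ranges overlapped broadly and the log2 fold change was -0.09 in MaP R172H/- tumors (95% interval -0.50 to 0.33, edgeR FDR 0.823). Whether Pecam1 and Cdh5 differed from each other in their response was not tested. In MaP R245W/- against MaP -/- tumors the value for Cdh5 was 0.04 (SE 0.309, FDR 0.970) with TMM, -0.10 with upper-quartile factors and -0.07 over protein-coding genes alone.

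The ratio of 2 genes within a tumor does not depend on library size. Ratios were taken between counts, without correction for transcript length. Kdr had 0.438 to 0.567 of the count of Pecam1 in MaP -/- tumors. This ratio was 0.459 to 0.674 in MaP R245W/- tumors and 0.519 to 0.829 in MaP R172H/- tumors. The ratios overlapped but were 1.39-fold higher on average in MaP R172H/- than in MaP -/- tumors (difference of log2 ratios 0.48, two-sided exact permutation test, p = 0.00466). After adjustment over the 18 tests of 6 ratios in 3 comparisons the exact p was 0.0839, and it was past 0.05 only without tumor YZ2 (adjusted exact p = 0.0390). With tumors of 1 mouse summed the difference was 0.47 and the adjusted exact p 0.273. No other ratio among Angpt2/Angpt1, Flt1/Kdr, Vegfa/Kdr, Tek/Cdh5 and Sox17/Cdh5 had an adjusted exact p under 0.555.

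In the angiopoietin system the ligand Angpt1 had the largest fold changes of all 10 genes against MaP -/- tumors, and they did not pass the test. Between the mutants its log2 fold change was -0.13 and ran from -0.44 to 0.15 with tumors left out in turn. Angpt1 (chr15:42288058-42540417, minus strand) was at 2.98, 8.72 and 23.02 CPM in the lowest, median and highest MaP R172H/- tumor. It was at 7.97, 22.997 and 53.2 CPM in MaP -/- tumors and at 19.7, 2.91, 9.06, 11.2 and 15.2 CPM in MaP R245W/- tumors. All 5 MaP R245W/- tumors and 6 of the 7 MaP R172H/- tumors were below the MaP -/- median. The lowest MaP -/- tumor, JM833-T2, lay in the midst of the MaP R172H/- tumors and below every MaP R245W/- tumor except JM1564. The log2 fold change against MaP -/- was -1.34 in MaP R172H/- tumors (95% interval -2.41 to -0.26, unadjusted p 0.0184, FDR 0.117) and -1.22 in MaP R245W/- tumors (-2.42 to -0.02, unadjusted p 0.0474, FDR 0.419; edgeR). Both comparisons share the MaP -/- tumors, and 24.7% and 11.8% of all genes tested had an unadjusted p under 0.05 in them. No gene passed in MaP R245W/- against MaP -/- tumors with edgeR (0 of 21452, against 2527 at an unadjusted p under 0.05 and 424 at an adjusted p under 0.05 with the DESeq2 Wald test), so the 0 of 10 members there equals the background. The 2 tumors of mouse JM663 had 21.5 and 42.9 CPM and those of JM833 had 24.5 and 7.97 CPM, so sister tumors of 1 mouse differed widely in this gene.

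Angpt2 (chr8:18739202-18791603), the context-dependent antagonist, was at 18.8, 26.1 and 57.1 CPM in the lowest, median and highest MaP R172H/- tumor and at 18.5, 44.6 and 51.1 CPM in MaP -/- tumors. The MaP R245W/- tumors lay close together at 28.6, 29.4, 32.03, 32.1 and 39.9 CPM. Groups overlapped, with log2 fold changes of -0.36 (SE 0.318, FDR 0.520) and -0.25 (SE 0.278, FDR 0.738) for MaP R172H/- and MaP R245W/- against MaP -/- tumors by edgeR. The ratio of Angpt2 to Angpt1 had a median of 3.80 in MaP R172H/-, 2.87 in MaP R245W/- and 1.52 in MaP -/- tumors, with overlapping ranges (two-sided exact permutation p = 0.163 and p = 0.104 against MaP -/-, before adjustment). Tek (chr4:94627291-94763224), the receptor of both, was at 6.74, 9.54 and 16.8 CPM in MaP R172H/- tumors and at 8.50, 11.3 and 62.1 CPM in MaP -/- tumors. Values of 22.8, 3.06, 9.38, 22.5 and 8.93 CPM were found in MaP R245W/- tumors. The highest value belonged to JM833-T1, the tumor with the high adipocyte markers, and the part of adipose tissue in it was not tested. Tek gave log2 fold changes of -0.94 (SE 0.463, FDR 0.231) and -0.67 (SE 0.644, FDR 0.698), and without JM833-T1 the values were -0.23 and 0.04 (edgeR).

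Eng (chr2:32535543-32574661) was at 24.2, 44.2 and 85.2 CPM in the lowest, median and highest MaP R172H/- tumor and at 23.95, 40.8 and 76.0 CPM in MaP -/- tumors. The MaP R245W/- tumors had 29.7, 18.5, 25.3, 55.9 and 32.3 CPM, of which 4 lay below both other medians. Its estimate was the only 1 above 0 in MaP R172H/- tumors, 0.07 against MaP -/- (SE 0.295, FDR 0.903), which turned to -0.01 with upper-quartile factors, and its value in MaP R245W/- tumors was -0.48 (SE 0.339, FDR 0.581; edgeR). Sox17 (chr1:4561151-4567784) was at 1.29, 1.85 and 4.51 CPM in MaP R172H/- tumors and at 1.42, 2.02 and 9.53 CPM in MaP -/- tumors. The 5 MaP R245W/- tumors had 3.10, 0.804, 1.63, 4.25 and 2.79 CPM. The medians of MaP R172H/- and MaP -/- tumors differed by less than the spread of either, and the log2 fold change of -0.66 (SE 0.467, edgeR FDR 0.404) was 0.00 without JM833-T1.

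**Figure D2:**
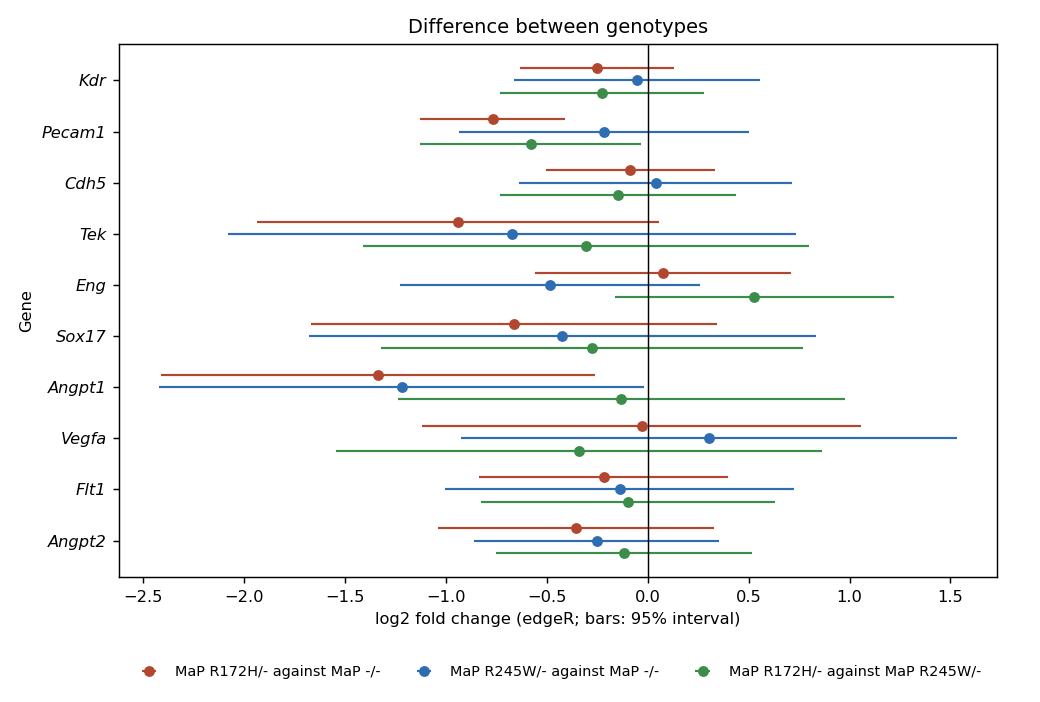
Log2 fold change (x axis) of each gene in the 3 comparisons, as points with bars for the 95% interval from edgeR. Pecam1 in MaP R172H/- against MaP -/- tumors (-0.77) is the only estimate past an FDR of 0.05, and the widest bars belong to Vegfa, Tek, Angpt1 and Sox17.

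Across the 10 genes, 9 estimates were below 0 in MaP R172H/- against MaP -/- tumors and 8 in MaP R245W/- against MaP -/- tumors. The median log2 fold change was -0.30 and -0.23, against 0.0027 and 0.020 over all genes tested. With upper-quartile factors, which moved the median of all genes tested to -0.065 and -0.114, 10 and 9 estimates were below 0. The 2 comparisons share their control tumors. The count in MaP R245W/- against MaP -/- tumors also turned on single tumors. Without JM833-T1, Kdr (0.07), Tek (0.04) and Sox17 (0.25) were above 0. Without JM1126, Vegfa (-0.38) and Cdh5 (-0.35) were below 0. In the wider list of 28 endothelial identity genes, 5 fell in MaP R172H/- against MaP -/- tumors, namely Calcrl (the receptor of adrenomedullin, -1.40), Cldn5 (claudin 5, a tight junction protein, -1.36), S1pr1 (a sphingosine 1-phosphate receptor, -1.11), Esam (-0.94) and Icam2 (an adhesion molecule, -0.91). The estimate was below 0 for 25 of 28, with a median of -0.51. Over all genes tested 4.73% fell, and 50.2% of estimates were above 0. In MaP R245W/- against MaP -/- tumors the same list had 14 of 28 above 0 (51.8% over all genes) and a median of -0.0065. None was past the threshold, as was true of all 21452 genes tested there. Between the mutants 25 of 28 were below 0 in MaP R172H/- tumors (median -0.51). Only Calcrl passed (-1.29, edgeR FDR 0.00507), 1 of 28 in a comparison where 9.40% of all genes tested passed. The most abundant endothelial identity gene was Cd93, a surface receptor, in 14 of 18 tumors. Its log2 fold change was -0.65 in MaP R172H/- against MaP -/- tumors and did not pass.

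Among the partners of the VEGF system, the coreceptor Nrp1 fell in MaP R172H/- against MaP -/- tumors (from a mean of 133 to 71.5 CPM, log2 fold change -0.88, FDR 0.0302), 1 of 7 VEGF ligands and coreceptors. Nrp2, the second neuropilin, had -0.86 and the lymphatic ligand Vegfd -1.96 and did not pass (FDR 0.324 and 0.0542; edgeR). Pdgfb, by which sprouting endothelium recruits pericytes, rose (from 33.0 to 68.0 CPM, 1.07, FDR 0.0232), the only 1 of 10 tip cell genes past the threshold. With 8.40% of all genes tested past it in this comparison, 1 gene in a list of this size is near the background. Over all genes tested in this comparison 4.73% fell, and 2.62% were lower without overlap. Of 9 arterial genes 2 fell, the kinase Bmx (-1.67, without overlap) and Stmn2 (-5.71), better known as a neuronal stathmin. Stmn2 was at 134 CPM in JM663-T2 and 24.5 CPM in JM779-T1 but at most 3.12 CPM in the other MaP -/- tumors, and without JM663-T2 it no longer passed (-3.58, edgeR FDR 0.106). Of 7 lymphatic genes the hyaluronan receptor Lyve1 fell (-2.19, FDR 0.0445), a gene that macrophages also express. No gene passed among 10 tested of 12 in the angiopoietin and ALK1 pathway, 6 tested of 7 venous genes, 10 pericyte genes and 9 angiogenesis inhibitors. By mean level the leading 3 of each were Bmpr2 (0.00), Smad5 (-0.33) and Svep1 (-1.07) of the angiopoietin and ALK1 pathway, Ephb4 (0.54), Vcam1 (-1.83) and Aplnr (-0.32) of the venous genes, Pdgfrb (0.10), Rgs5 (0.14) and Mcam (0.43) of the pericyte genes, and Thbs1 (-0.28), Col18a1 (0.68) and Thbs2 (-0.37) of the inhibitors, each as a log2 fold change. Of 15 hypoxia targets 3 fell, the glycolytic enzyme Pgk1 (-1.97), the mitophagy receptor Bnip3 (-1.71) and the glycolysis regulator Pfkfb3 (-0.87), while Vegfa itself had -0.03. Counting all 15, 13 were below 0 (median -0.45), where 50.2% of estimates over all genes tested were above 0.

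Other compartments moved in the same comparison. Of 7 fibroblast genes 3 fell, Pdgfra (-2.49), Lum (-1.98) and Fap (-1.19, without overlap), where 4.73% of all genes tested fell and 2.62% were lower without overlap. The 9 epithelial genes, led in level by Krt18 (1.38), Krt8 (1.28) and Epcam (1.12), all had estimates above 0 (median 1.28) and none passed. Nor did any of the 8 adipocyte genes, led by Plin4 (-3.64), Lpl (-3.04) and Adipoq (-3.61), all below 0 with a median of -3.02 that was -0.44 without JM833-T1, or of the 5 skeletal muscle genes tested (median 1.46). The part of these shifts in the level of the endothelial genes was not tested. In MaP R245W/- against MaP -/- tumors no gene of any list passed, which equals the background of 0 among 21452 genes tested with edgeR. The median log2 fold change there was 0.51 for the pericyte list (9 of 10 above 0), -0.90 for the leukocyte list (8 of 10 below 0), 0.12 for the hypoxia targets, -6.30 for the adipocyte list and 5.69 for the skeletal muscle list. Single tumors carried much of the last 2 values: the adipocyte median was -3.07 without JM833-T1 and the muscle median 3.38 without JM1233. Between the mutants, the genes of the lists that passed were Calcrl, Pgk1 (-2.11), the angiopoietin Angpt4 (-1.85), the pericyte and muscle filament gene Des (-3.02), Adgre1 (-1.31), Itgam (-1.38) and Lum (-2.60). So did 5 of 7 skeletal muscle genes (Acta1, Myh4, Mylpf, Tnnt3 and Myh2). All were lower in MaP R172H/- tumors, in a comparison where 9.40% of all genes tested passed in either direction. Des was at 207 CPM in JM1233 and 39.6 CPM in JM1133 against 7.11 to 14.3 CPM in the other MaP R245W/- tumors. Without JM1233, the tumor with the highest muscle markers, Des did not pass (-1.34, FDR 0.140; edgeR) and 3 muscle genes did. The part of muscle tissue in the level of Des was not tested. These choices of tumors were made after seeing the data.

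The members differed from each other in which tumors were high. After subtraction of group means, the 45 pairs of members were correlated over the 18 tumors, with permutation tests of 100000 resamples within groups and Benjamini-Hochberg adjustment over the 45 pairs. By Pearson's r 15 pairs passed and by Spearman's rho 10, and 10 passed both. Kdr and Pecam1 were the closest (r = 0.89, permutation p 4.0e-05, adjusted 0.000900; rho = 0.76, p 0.000880, adjusted 0.0198). The other pairs of this group were Pecam1 with Cdh5 (r = 0.83), Kdr with Sox17 (0.81), Tek with Sox17 (0.80), Kdr with Eng (0.77), Kdr with Tek (0.75) and Pecam1 with Sox17 (0.75). Within the 7 HiSeq libraries, all of them MaP R172H/- tumors, Kdr with Tek had 0.05 and Pecam1 with Sox17 0.17, while the other pairs that passed kept an r beyond 0.5 in size in both sets of libraries. Of the pairs of Tek that did not pass both tests, 3 within the same group of genes ran the other way in the HiSeq libraries, with -0.60 for Pecam1, -0.66 for Cdh5 and -0.33 for Eng, against 0.84, 0.55 and 0.65 in the NovaSeq libraries.

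Vegfa and Flt1 formed the second pattern (r = 0.81, permutation p 0.000260, adjusted 0.00390; rho = 0.73, p 0.00217, adjusted 0.0235). Angpt2 joined Vegfa (r = 0.63, rho = 0.66, adjusted permutation p 0.0178 and 0.0235) and ran against Tek (r = -0.57, rho = -0.66, adjusted permutation p 0.0292 and 0.0257). With the tumors of 1 mouse averaged neither passed (adjusted permutation p of r 0.0613 and 0.0542). The r of Vegfa with Flt1 was 0.73 within the HiSeq and 0.88 within the NovaSeq libraries. By contrast the 2 VEGF receptors had an r of 0.13 with each other (rho = -0.05, adjusted permutation p 0.816 and 0.971), and Vegfa had -0.15 with Kdr. The difference between the correlations of Flt1 with Vegfa and with Kdr was not tested. Angpt1 passed with no other member, its highest r being 0.54 with Cdh5 (adjusted permutation p 0.0883).

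**Figure D3:**
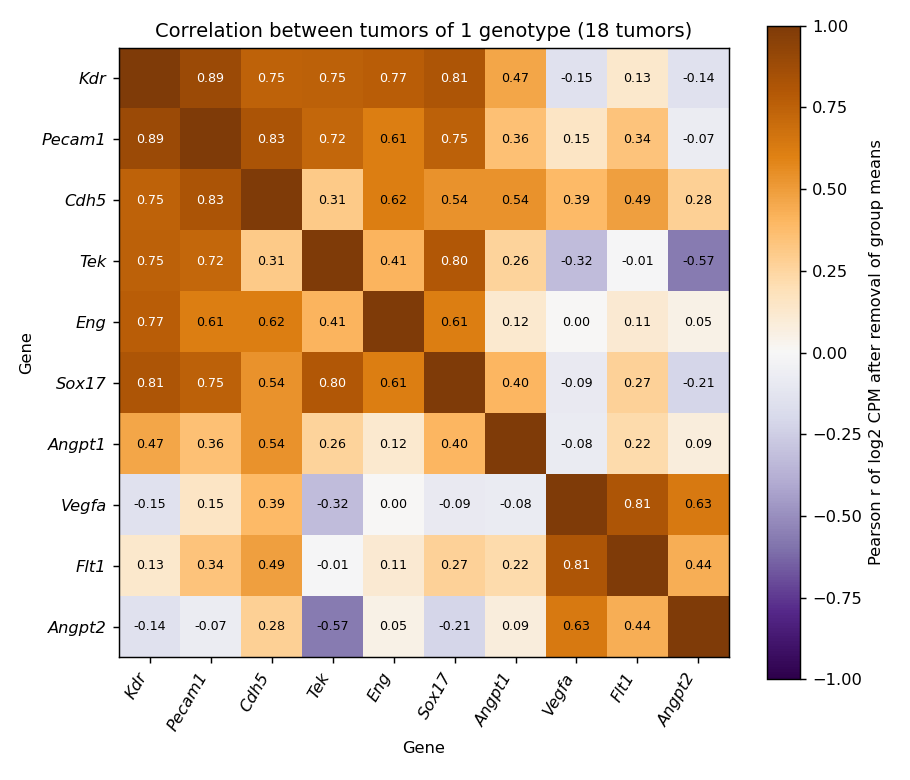
Pearson r between each pair of genes over 18 tumors after removal of the group means (colour and printed value). Kdr, Pecam1, Cdh5, Tek, Eng and Sox17 form 1 block with values from 0.31 (Cdh5 with Tek) to 0.89, and Vegfa, Flt1 and Angpt2 a second block with values from 0.44 (Flt1 with Angpt2) to 0.81. Both blocks hold pairs that did not pass both tests. Some pairs across the blocks reached values as high as the lowest inside them, such as Flt1 with Cdh5 (0.49) and Vegfa with Cdh5 (0.39).

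Extreme tumors were left out to see how far these correlations rested on them. With the 2 tumors farthest from the median of the first gene of each pair left out, which also narrows the range of that gene, no pair passed both adjusted tests. All 10 kept their sign, with r from 0.54 to 0.75 for the positive pairs and -0.65 for Tek with Angpt2. For most pairs of the first block these were JM1564, lowest of all tumors in Kdr, Pecam1 and Cdh5, and JM1126, highest in the same genes. For the pairs of Vegfa they were JM1233 and JM833-T2, with Vegfa at 64.6 and 51.3 CPM. Leaving out JM1126 alone, a choice made after seeing the data, gave r = 0.86 for Kdr with Pecam1 and 0.77 for Vegfa with Flt1, and 9 pairs passed both tests. Sister tumors of 1 mouse are included in these values, and when such tumors were averaged 7 pairs passed both tests, 6 of these 10 and also Pecam1 with Eng (r = 0.71). Tek with Sox17 (r = 0.81), Kdr with Tek (0.73), Vegfa with Angpt2 (0.58) and Tek with Angpt2 (-0.55) then did not pass both.

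**Figure D4:**
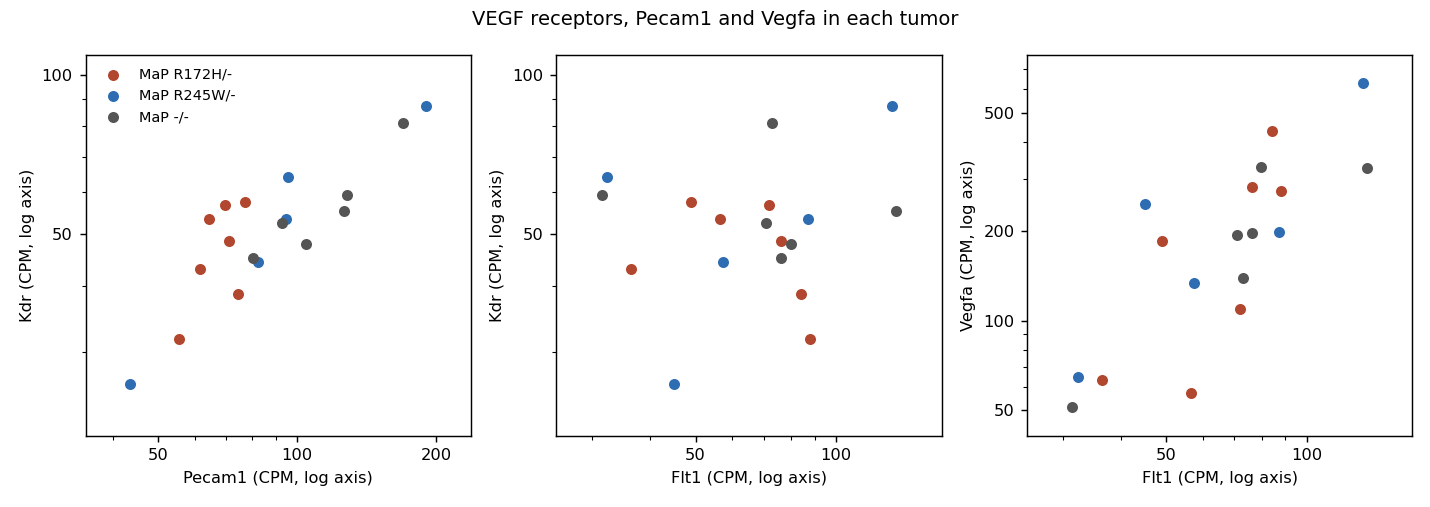
Level in each tumor (CPM, both axes logarithmic, colour by genotype) of Kdr against Pecam1, Kdr against Flt1 and Vegfa against Flt1. Kdr rises with Pecam1 and Vegfa rises with Flt1, while Kdr and Flt1 show no common trend (r = 0.13 after removal of group means).

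The genes most like each member, by Pearson r over the 18 tumors among 15197 protein-coding genes after subtraction of group means, fell along the same line. For Kdr these were Adcy4 (0.96), Thsd1, Arap3, Fgd5 and Egfl7 (0.92), and for Pecam1 they were Esam (0.94), Car4, Egfl7, Erg (an endothelial ETS factor) and Nos3 (endothelial nitric oxide synthase, 0.91). Cdh5 was followed by Pcdh12 (0.93), Esam, Cldn5, Kdm7a and Tie1 (0.84), and Sox17 by Vsig2 (0.92), Ushbp1, Ptprb, Nherf2 and Egfl7 (0.87). Tek was most like Dpep1 (0.95), Sh3tc1, Ackr1 (a chemokine receptor of venules), Mfng and Cd209c (0.91). Eng was followed by Mbd6 (0.87), Ptpn23, Rab2b and Rasl12 (0.85), and Angpt1 by Them4 (0.84), the lymphangiogenic ligand Vegfc (0.82), Arl14epl, Urgcp and Lhfpl6 (0.78). Vegfa was most like Dnajc5 (0.88), the glucose transporter Slc2a1 (0.86), Trip10, Kcne3 and the vasodilator peptide gene Adm (0.84). Flt1 was followed by Kif1c (0.90), Nos2 (inducible nitric oxide synthase, 0.90), the hypoxia target Ndrg1 (0.89), Plcd3 and Gcnt2 (0.88), and Angpt2 by Desi2 (0.88), the collagen prolyl hydroxylase P4ha1 (0.87), Sphk1 and Usp37 (0.86). All points share libraries and depth, and these lists carry no test.

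Whole lists were compared in the same way. With the 28 endothelial identity genes the median r was 0.79 for Pecam1, 0.78 for Kdr, 0.69 for Sox17, 0.67 for Cdh5 and 0.66 for Tek, with 28 of 28 above 0 in each case. Eng had 0.51 (27 of 28) and Angpt1 0.42 (28 of 28). Flt1 had a median of 0.23, Vegfa 0.02 and Angpt2 -0.07 with the same list. These medians were not split by instrument, and single genes of the list varied in this. Over the HiSeq and the NovaSeq libraries, Tek had -0.42 and 0.80 with Esam, and Pecam1 had 0.28 and 0.97 with Egfl7. Pecam1 with Esam had 0.94 and 0.95. With the 15 hypoxia targets the median was 0.63 for Vegfa (15 of 15 above 0), 0.48 for Flt1 (13 of 15) and 0.46 for Angpt2 (15 of 15). Cdh5 had 0.29 (10 of 15) and Pecam1 0.050 (9 of 15) with these targets, while Eng had -0.079, Kdr -0.16, Sox17 -0.20, Angpt1 -0.28 and Tek -0.45. The same 3 genes led with the 10 tip cell genes, a list of sprouting endothelium that includes Angpt2: the median was 0.63 for Angpt2 (over the 9 others), 0.49 for Vegfa and 0.43 for Flt1, all of them above 0, and it was also 0.43 for Cdh5 (9 of 10), against 0.12 for Pecam1, 0.062 for Kdr and -0.32 for Tek. Over all protein-coding genes the median r of each of these members lay between -0.049 and 0.034. Tek and Sox17 also ran with the adipocyte list (median r 0.75 and 0.60), whose sum was highest in JM833-T1, as did Pecam1 and Kdr at 0.42 and 0.40 (8 of 8 above 0 for each of the 4 genes). The fibroblast list, highest in JM1126, had a median r of 0.64 with Tek, 0.62 with Kdr, 0.59 with Pecam1, 0.50 with Sox17 and Cdh5 and 0.37 with Eng (7 of 7 above 0 in each), and the part of stromal content in the first pattern was not tested.

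**Figure D5:**
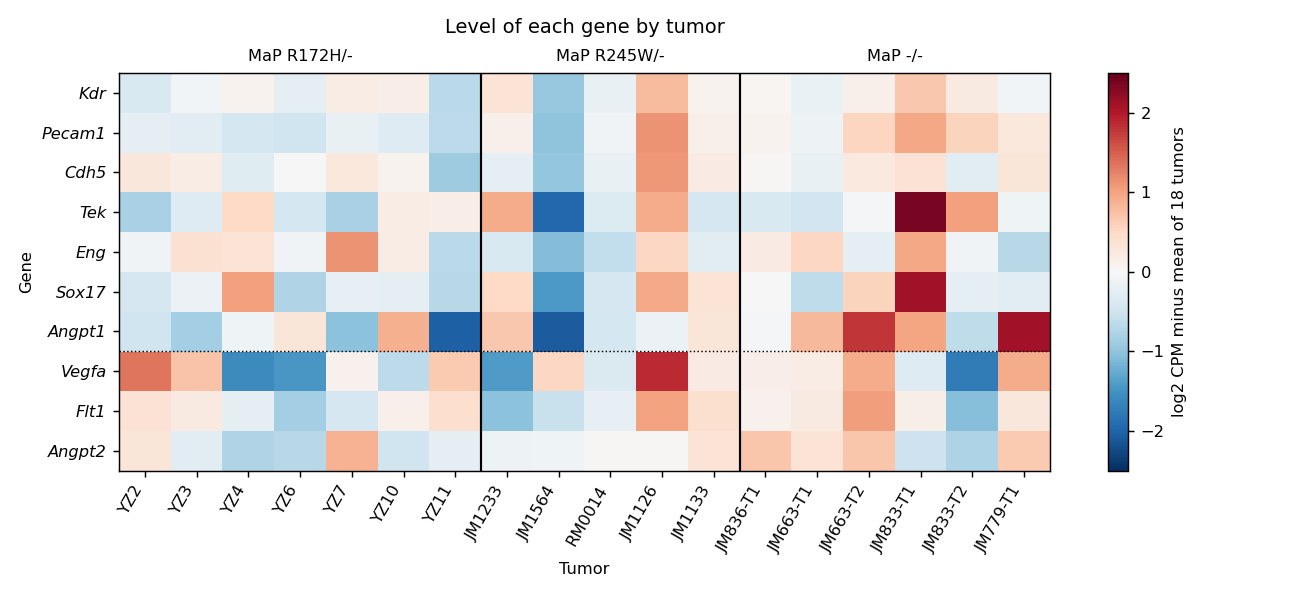
Level of each gene (rows) in each tumor (columns, grouped by genotype) as log2 CPM minus the mean of the 18 tumors, red above and blue below. JM1564 is low in the endothelial rows and above the mean for Vegfa, JM833-T1 is high in Tek and Sox17, and JM833-T2 is low in Vegfa, Flt1 and Angpt2.

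Single tumors could be high in one pattern and low in the other. JM1564 (MaP R245W/-) had the lowest Kdr (26.1 CPM), Pecam1 (43.5), Cdh5 (39.2), Tek (3.06), Eng (18.5), Angpt1 (2.91) and Sox17 (0.804 CPM) of all 18 tumors, yet 246 CPM of Vegfa and the highest summed hypoxia targets (2310 CPM). Its Flt1 was low as well, at 44.97 CPM. Among MaP R172H/- tumors, YZ11 likewise had the lowest Kdr (31.7 CPM), Pecam1 (55.4) and Cdh5 (41.4 CPM) of its group with the highest Flt1 (88.1 CPM). Its Eng (24.2 CPM) was also the lowest of that group, but its Tek (13.3 CPM) lay above the group median. The reverse of JM1564 was seen in part in JM833-T2 (MaP -/-), with the lowest Vegfa (51.3 CPM) and Flt1 (31.4 CPM) of all tumors. Beside this its Kdr was at 59.2 CPM, its Pecam1 at 128 CPM and its Tek at 24.2 CPM. However, its Cdh5 (62.9 CPM) was the lowest of its group, and its Eng (36.6 CPM) and Sox17 (1.86 CPM) lay below the group medians. JM1126 (MaP R245W/-) was high in both, with 627 CPM of Vegfa, 132 CPM of Flt1, 87.2 CPM of Kdr and 190 CPM of Pecam1.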

How the data were processed

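Total RNA of 18 mouse mammary tumors was depleted of ribosomal RNA and sequenced from stranded paired-end libraries. The authors aligned reads to GRCm39 with STAR 2.7.10b and obtained gene counts from RSEM 1.3.3 with the GENCODE M34 annotation; FastQC 0.11.9 is named in the submitters' processing notes. The deposited values were whole-number counts without normalisation, and 56620 of the 57126 identifiers were also found in GENCODE M39. Groups followed the genotype labels. Genes were compared with edgeR 4.0.16 (R 4.3.3; TMM, filterByExpr, quasi-likelihood test), with each mutant group against MaP -/- in a fit of its own and the mutants against each other in a fit of all 18 tumors. FDR was adjusted over all genes tested, with a threshold of 0.05. Ratios used counts plus 0.5 and exact permutation tests, and correlations 100000 permutations within groups. DESeq2 1.42.0 was an alternative. The tests were tested on simulated data. Python 3.11.15, numpy 2.4.6, scipy 1.17.1, pandas 2.3.3 and matplotlib 3.10.9 were used for the other steps. The 2 tumors of mouse JM663 and the 2 of mouse JM833 were counted as separate samples.

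The 10 members and the 16 further gene lists (endothelial identity, VEGF ligands and coreceptors, angiopoietin and ALK1 pathway, arterial, tip cell, venous, lymphatic, pericyte, angiogenesis inhibitors, hypoxia targets, leukocyte, platelet and megakaryocyte, fibroblast, adipocyte, skeletal muscle, epithelial) were chosen with earlier results of these data known. Named genes were the members, up to 6 genes of each list with the smallest FDR past 0.05 or else the 3 with the highest mean CPM, and the 5 protein-coding genes most correlated with each member, of which a few, and 1 promoter sequence, are not reported here. Cd93, Csf1r, Ptprc, Nrp2 and Vegfd were also named after their values were seen.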

Additional observations from a re-analysis of the deposited data

Results flagged for a closer look

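Single tumors far from the rest of their group, by Dixon's criterion at the 95% level, were looked for in the 30 sets of CPM values (10 genes in 3 groups). Chance flags about 1 in 20 such sets if values are normally distributed and sets independent. The sets here share tumors, and the distribution of CPM was not tested, so this rate is only a guide. Of the 30 sets, 3 were flagged. Tek was at 62.1 CPM in the MaP -/- tumor JM833-T1, against at most 24.2 CPM in the other 5 tumors of that group. Sox17 was at 9.53 CPM in the same tumor, against at most 3.26 CPM in the others, and in MaP R172H/- it was at 4.51 CPM in YZ4, against at most 1.98 CPM in the other 6. JM833-T1 and YZ4 also had the highest summed adipocyte markers of their groups, 4116 and 337 CPM. The part of adipose tissue in these levels was not tested.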

How the results depend on the processing

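No paired analysis was possible because replicate numbers only name the tumors. Pecam1 in MaP R172H/- against MaP -/- tumors stayed negative under every alternative (FDR 0.000531 to 0.0603), and failed the threshold only in 1 fit with all 3 genotypes. The count of members called was then 0, as it was with an absolute log2 fold change above 1 or above 2. Between the mutants it was 0 to 1 with tumors left out in turn.

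Some estimates that did not pass changed sign. With upper-quartile factors, which moved the median of all genes to -0.114 in MaP R245W/- against MaP -/- and to 0.1004 between the mutants, Eng became -0.012 (MaP R172H/- against MaP -/-), Cdh5 -0.10 (MaP R245W/- against MaP -/-) and Flt1 0.011 (between the mutants). Over protein-coding genes alone Cdh5 was -0.066, and with tumors of 1 mouse summed Kdr was 0.000204, both in MaP R245W/- against MaP -/-. With each tumor left out in turn, log2 fold changes ran in MaP R172H/- against MaP -/- from -0.36 to 0.17 for Vegfa, -0.13 to 0.29 for Eng and -0.39 to 0.013 for Flt1. In MaP R245W/- against MaP -/- they ran from -0.38 to 0.55 for Vegfa, -0.51 to 0.087 for Flt1, -0.28 to 0.13 for Kdr, -0.35 to 0.22 for Cdh5, -0.95 to 0.041 for Tek and -0.69 to 0.25 for Sox17. Between the mutants they ran from -0.65 to 0.32 for Vegfa, -0.28 to 0.26 for Flt1, -0.40 to 0.0060 for Kdr, -0.33 to 0.23 for Cdh5, -0.59 to 0.0054 for Sox17 and -0.44 to 0.15 for Angpt1, and the log2 ratio of Angpt2 to Angpt1 from -0.37 to 0.32.

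Genes called among all genes tested numbered 1760, 0 and 2114 in the 3 comparisons (MaP R172H/- against MaP -/-, MaP R245W/- against MaP -/-, between the mutants). The DESeq2 Wald test gave 3432, 424 and 3703. In the comparisons with called genes, protein-coding genes alone gave 1059 and 875, an absolute log2 fold change above 1 gave 1051 and 1392, and above 2 gave 287 and 526. Summing tumors of 1 mouse gave 1126 in MaP R172H/- against MaP -/-, 1 fit with 3 genotypes 2 in MaP R245W/- against MaP -/-, and a minimum of 10 counts in every tumor 1401 between the mutants. Leaving out tumors gave 1067 to 1866, 0 to 3 and 1525 to 2362. Of the correlations, 4 passed both tests without subtraction of group means and 0 without the 2 farthest tumors; 0 to 1 of the 18 ratio tests passed with tumors left out. Listed values that turned on 1 tumor are given with the lists, without JM663-T2, JM833-T1 or JM1233 in turn, choices made after seeing the data. The cause of these changes was not tested.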
